A study of Mus musculus with 6 samples.

Results

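Axl, Mertk and Tyro3 form the TAM family of receptor tyrosine kinases, and Gas6 and Pros1 encode their ligands. The 5 genes were taken by name from the platform annotation of the array, as every probe set whose single symbol was one of them, which gave 8 of the 45101 probe sets. The group was chosen because Axl was higher in Ret-deficient kidneys, so the difference of Axl is given below as a description without a test, while the other 4 genes entered by family and not by value. RNA was measured in whole kidneys of C57BL/6 mouse embryos at embryonic day 12.5, 3 of them wild-type and 3 Ret-deficient, each a biological replicate on its own Affymetrix array. Ret encodes the receptor through which GDNF acts on the branching epithelium of the ureteric bud, the origin of the collecting ducts. The sample titles place the deficiency in the embryonic kidney, whereas the source field names a knockout pregnant female; the titles were followed. Which Ret allele was used, whether embryos shared a litter and how many were pooled is not stated in the labels.

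TAM receptors carry immunoglobulin-like and fibronectin type III domains outside the cell and a tyrosine kinase inside it. Gas6 and protein S, the product of Pros1, bind the receptors at one end and, through a vitamin K-dependent Gla domain at the other, the phosphatidylserine that dying cells expose. By this bridge macrophages and other cells take up apoptotic bodies, and the receptors also restrain inflammatory signalling. Gas6 binds all members of the receptor family, whereas protein S is known mainly as a ligand of Tyro3 and Mertk and as an anticoagulant cofactor in plasma.

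The promoters of the 5 genes are shown as the regulatory sequence at their starts, which the choice of the genes did not use. Each holds at least 1 GC box, the 6 letters GGGCGG searched on both strands and counted also where matches overlap, in the 300 bases from 250 before to 50 after the RefSeq start. The 30 bases printed for each gene hold the GC box that lies closest to the start while wholly before it, 5′ to 3′ on the strand of the gene, with GC boxes in capitals; positions count from the start, the base before it being -1.
Axl, -30 to -1, chr7:25788734-25788763, minus strand: cccaaggctggggccctagtGGGCGGaggc
Mertk, -111 to -82, chr2:128698804-128698833, plus strand: ccttcccccttcCCGCCCctgtccactcca
Tyro3, -34 to -5, chr2:119799480-119799509, plus strand: gggggagggggaGGGCGGcacgagctccgc
Gas6, -30 to -1, chr8:13494536-13494565, minus strand: ccacccccacCCGCCCtaagccCCGCCCtc
Pros1, -30 to -1, chr16:62854277-62854306, plus strand: cctCCGCCCctggctgctCCGCCCGCCCgc
The sequences and coordinates are those of RefSeq on GRCm38.p6, and all 5 genes matched an entry.

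The number of GC boxes in the 300 bases was 2 for Axl, 4 for Mertk, 6 for Tyro3, 4 for Gas6 and 5 for Pros1. Of all 32851 windows of that kind a share of 35.7% held a GC box, and of the 11074 windows at least as rich in G and C as that of Gas6, the least rich of the 5 at 58.3%, it was 77.1%. With most windows of such content holding one, a GC box in all 5 is not particular to these genes. The G and C content was 60.3% for Axl, 66.0% for Mertk, 73.3% for Tyro3 and 66.7% for Pros1, against a median of 52.7% over all windows. None of the 5 windows contained the TATA box letters TATAAA, which 13.6% of all windows held. The CCAAT box, found in 37.4% of all windows, was absent from these letters too. The AP-1 core TGANTCA, searched in the same way and found in 7.8% of all windows, was not among them either. These matches are descriptions of the letters and were not related to the array values.

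Ret itself separated the groups, at 10193 to 13315 signal units in wild-type and 93.3 to 479.8 in Ret-deficient kidneys on its brighter probe set. All arrays had been scaled to the same trimmed mean of 2500.01 units. The brightest of 27 bacterial control probe sets, used as a gauge of background, read 97.2 to 186.9 units. Wild-type replicate 1 stood apart in RNA quality, with a 3 prime to 5 prime signal ratio of 10.7 for beta-actin and 4.91 for Gapdh. On the other 5 arrays these ratios were 3.88 to 5.21 and 1.86 to 2.31. With 3 arrays per group an exact permutation test cannot give a p below 0.1, and precision is limited by how few arrays there are. Nothing in the labels says whether replicates came from separate litters, so the p-values measure the spread between these samples only.

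Of the 8 probe sets 5 passed the brightness filter, 1 for each gene: 1423586_at for Axl, 1422869_at for Mertk, 1425248_a_at for Tyro3, 1417399_at for Gas6 and 1426246_at for Pros1. All 5 read above the brightest bacterial control on all 6 arrays, by factors from 2.54 for Gas6 in wild-type replicate 1 to 104 for Pros1 in wild-type replicate 3. The other 3 probe sets were too dim to test. The second Axl probe set, 1438621_x_at, read 8.3 to 43.8 units and the second Gas6 probe set, 1459585_at, 4.5 to 41.2 units, both below the brightest control on every array. The second Tyro3 probe set, 1425249_a_at, read 177.8, 198.9 and 206.1 in wild-type and 158.2, 229.3 and 172.6 in Ret-deficient kidneys, near background, and its groups overlapped. No fold change is given for these 3, so each gene rests on a single probe set.

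All 5 fitted differences were positive, with a median log2 difference of 0.34, and of 0.31 without Axl. The sign of Axl was fixed by the choice of the group, and that of Mertk rested on Ret-deficient replicate 3, so nothing is read from the count of signs. The median over the 11581 genes tested was 0.003, and 50.5% of them were positive. The highest array differed between members, being Ret-deficient replicate 1 for Axl and Pros1, replicate 2 for Tyro3 and replicate 3 for Mertk and Gas6. Only Axl had groups that did not overlap, 1 of 5 members, a share to be read beside the 10.7% of all 22519 tested probe sets whose groups did not overlap; Axl was chosen on this contrast, so nothing is read from its place in the count. In limma no tested probe set passed an adjusted p of 0.05, the share called being 0%, and 1209 probe sets, or 5.37%, had an unadjusted p under 0.05. None of Mertk, Tyro3, Gas6 and Pros1 was among these 1209. In bulk samples such as these, a change in the number of cells of a type and a change in RNA per cell cannot be told apart.

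**Figure D1:**
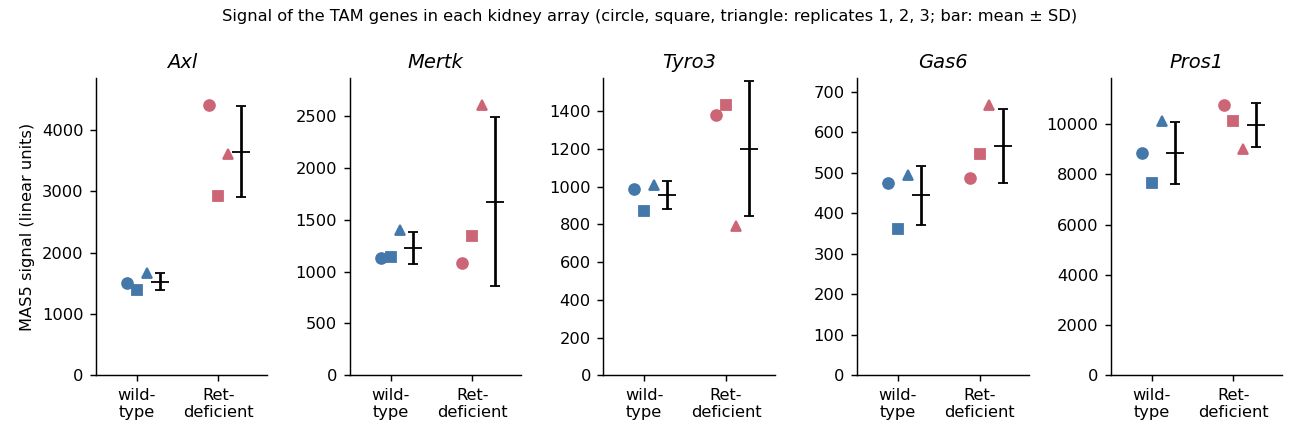
MAS5 signal (linear units, axis from 0) of the brightest probe set of each gene in the 3 wild-type and 3 Ret-deficient arrays, with symbols for replicates 1, 2 and 3 and bars for mean ± SD. Axl alone shows separate groups, Mertk is high in Ret-deficient replicate 3 at 2598 units, and Tyro3 is low there at 788.9 units.

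Among the receptors Axl, which in many tissues is expressed by mesenchymal, endothelial and some myeloid cells, was the one that was higher in every Ret-deficient sample. It read 1503, 1395 and 1674.5 units in wild-type replicates 1, 2 and 3, and 4395, 2913 and 3611 units in Ret-deficient replicates 1, 2 and 3. The lowest Ret-deficient value was 1.74 times the highest wild-type value, so the groups lay well apart. As means these were 1524 ± 141 and 3640 ± 741 units (SD, n = 3 per group). On the log2 scale the fit gave a difference of 1.23 (SE 0.20), given without an interval or test since the gene was chosen on it, or 2.35-fold on the scale of signal plus 16 units. Against the wild-type mean the single Ret-deficient arrays stood at 2.88-fold, 1.91-fold and 2.37-fold, so replicate 1 was highest and replicate 2 lowest. The coefficient of variation was 9.23% among wild-type and 20.4% among Ret-deficient arrays. Among the 11581 genes the difference of Axl ranked 66th from the top, and 40th among the 697 genes whose groups did not overlap in the upward direction, which were 6.02% of the genes tested. Leaving out each array in turn gave log2 differences between 1.09, when Ret-deficient replicate 1 was dropped, and 1.38, when Ret-deficient replicate 2 was. Without wild-type replicate 1, the array with the high 3 prime to 5 prime ratios, the value was 1.22.

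Markers of the renal stroma, the ureteric epithelium, macrophages and neural crest differed in median beside Axl. Of 12 stromal markers, all of them tested, 10 were positive with a median log2 difference of 0.35, and 5 had groups that did not overlap, all upward. Their summed signal was 132949 to 157049 units in wild-type and 166067 to 192777 units in Ret-deficient kidneys. The brightest of them were the collagen genes Col3a1, at 27754 ± 4241 against 37813 ± 6609 units, and Col1a1, at 27370 ± 5275 against 30473 ± 541 units (mean ± SD, n = 3 per group). Both had groups that overlapped. Of 12 tested epithelial markers out of 14 listed, 11 were negative with a median of -1.23, and 5 had groups that did not overlap, all downward. For the stromal and the epithelial list alike this is 41.7% of the tested markers, beside 11.8% of all 11581 tested genes in either direction. The lists were chosen with earlier results of these data known, so nothing is read from the distance between these shares. The epithelial sum was 72346 to 85450 units in wild-type kidneys, and 8243, 64333 and 52112 units in Ret-deficient replicates 1, 2 and 3. In Ret-deficient replicate 1, where Axl was highest, 5 of the 13 epithelial genes on the array were not above the brightest control, against 1 or 2 on the other arrays. The calbindin gene Calb1 read 128.1 units there, at the level of that array's control of 128.2, and 13353 or more on the others. Krt18, an epithelial keratin gene and the second brightest of the list, read 10737.5 to 13087 units in wild-type and 2140, 13390 and 7254 units in Ret-deficient replicates 1, 2 and 3, so its groups overlapped, with replicate 2 above the wild-type range. The macrophage median, described with Mertk below, was 0.59, and that of the 3 tested neural crest and neuron markers -1.06. None of these markers passed the limma test, and the part of any of these cell types in the Axl difference was not tested.

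By array the stromal median stood at 0.52, 0.22 and 0.56 above the wild-type mean (log2) in Ret-deficient replicates 1, 2 and 3, and Axl at 1.52, 0.93 and 1.24. The macrophage median stood at 0.49, -0.21 and 1.43, and the epithelial median at -3.14, -0.33 and -0.69. Among the Ret-deficient arrays Axl, the stromal median and the macrophage median were each lowest in replicate 2, and the epithelial median was highest there. Axl was highest in replicate 1, but the stromal and macrophage medians in replicate 3. The endothelial, neural crest, erythroid and smooth muscle medians were lowest in replicate 3, and the nephron progenitor median in replicate 1. Whether any of these orders bears on Axl was not tested. Foxd1, a transcription factor of stromal progenitors named after its values were seen, read 4633 to 7314 units in wild-type and 11833, 7815 and 18372 units in Ret-deficient replicates 1, 2 and 3. Its log2 difference was 0.93, but other stromal markers, also named with their values at hand, did not share it. The 2 negative ones, Pdgfra and Meis1, had -0.02 and -0.01, and Tcf21 had 0.23 (SE 0.49), with overlapping groups in each.

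**Figure D2:**
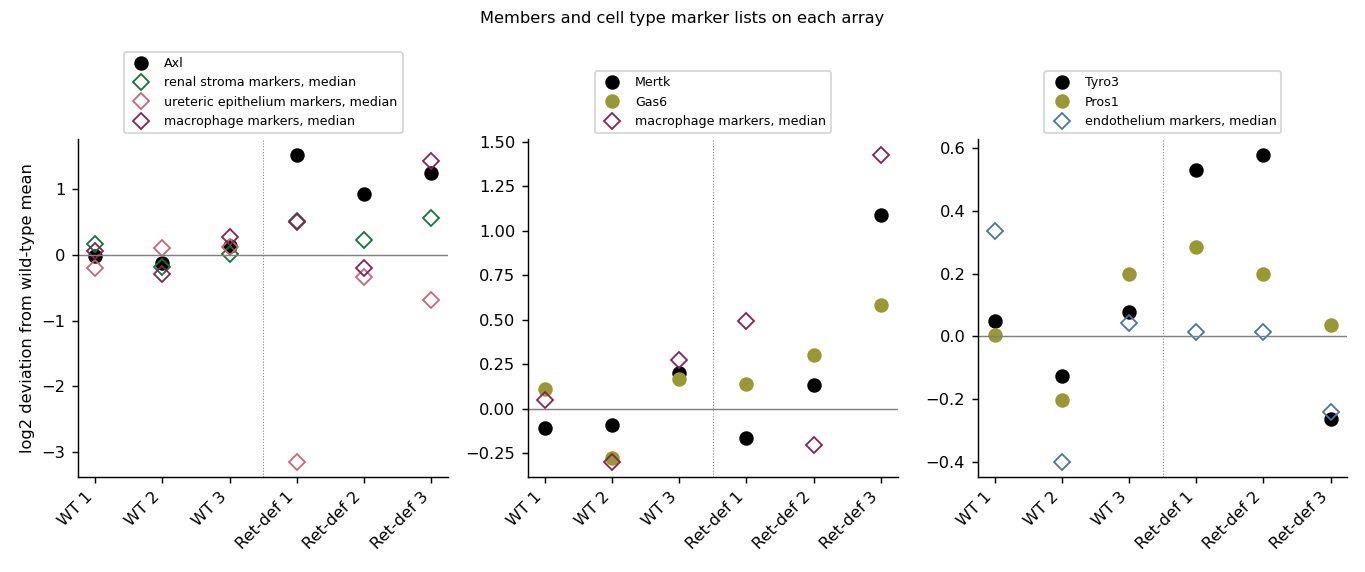
Log2 deviation of each array from the wild-type mean for the members (filled circles) and for the median tested gene of a marker list (open diamonds): Axl with stroma, epithelium and macrophages, Mertk and Gas6 with macrophages, Tyro3 and Pros1 with endothelium. Mertk at 1.09 and the macrophage median at 1.43 are both highest in Ret-deficient replicate 3, and the epithelial median is at -3.14 in Ret-deficient replicate 1.

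Mertk, the TAM receptor best known from phagocytes such as macrophages and the retinal pigment epithelium, stood above the wild-type range in a single sample. It read 1129, 1140 and 1399 units in wild-type replicates 1, 2 and 3 and 1083, 1338 and 2598 units in Ret-deficient replicates 1, 2 and 3. Replicates 1 and 2 thus lay at or below the highest wild-type array, and replicate 3 at 2.13 times the wild-type mean. The groups overlapped, and the log2 difference was 0.35 (SE 0.33, 95% interval -0.44 to 1.14; limma adjusted p = 0.955, exact two-sided permutation p = 0.7). The interval allows a change between 0.74-fold and 2.20-fold on the scale of signal plus 16 units. Without Ret-deficient replicate 3 the difference was -0.015, so the positive sign rests on that array.

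The macrophage markers were also highest in Ret-deficient replicate 3. Their median there was 1.43 above the wild-type mean (log2), against 0.49 and -0.21 in Ret-deficient replicates 1 and 2. All 8 tested markers of the 13 listed were positive, with a median difference of 0.59, and in none of the 8 did the groups stay apart. Of the 5 markers too dim to test, Fcgr1, an Fc receptor gene, and Aif1, which encodes the macrophage protein Iba1, had groups that did not overlap. The groups of Adgre1, Ptprc and C1qa overlapped. The share of all untested probe sets with separate groups was not computed, so nothing is read from these 2 genes, which were named after their values were seen. Fcgr1 read 96.8 to 178.7 units in wild-type and 283.9 to 450.7 units in Ret-deficient kidneys, and Aif1 141.3 to 182.8 and 256.3 to 710.9 units. All 3 Ret-deficient arrays were above the brightest control for both. Wild-type replicate 1 was below it for both genes, and wild-type replicate 2 for Fcgr1. The summed signal of all 13 was 19810 to 30859 units in wild-type kidneys and 36333, 25174 and 69036 units in Ret-deficient replicates 1, 2 and 3. The complement gene C1qb, the brightest of the list, read 11346 to 18414 units in wild-type kidneys and 36742 units in Ret-deficient replicate 3. Csf1r, the receptor on which macrophages depend, read 4312 to 6866 units in wild-type kidneys and 17208 units in that replicate. In Ret-deficient replicate 1, where the macrophage sum was 36333 units, Mertk was at its lowest value, 1083 units. Of the 13 genes 4, 3 and 0 were not above the brightest control in wild-type replicates 1, 2 and 3, and 0, 1 and 0 in the Ret-deficient ones. Their part in the Mertk values was not tested.

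Tyro3, a TAM receptor known above all from the nervous system, read above the wild-type range in 2 of 3 Ret-deficient arrays and below it in the other. It read 985.2, 869.1 and 1006 units in wild-type replicates 1, 2 and 3 and 1381, 1430 and 788.9 units in Ret-deficient replicates 1, 2 and 3. The groups overlapped because of replicate 3 alone. The log2 difference was 0.28 (SE 0.26, 95% interval -0.33 to 0.89; limma adjusted p = 0.955, exact two-sided permutation p = 0.4). Without Ret-deficient replicate 3 it was 0.55, though limma still gave adjusted p = 0.46. The groups did not overlap then, as was so for 28.6% of all tested probe sets. The difference shrank to 0.13 when Ret-deficient replicate 2 was dropped, and to 0.16 when replicate 1 was. Ret-deficient replicate 3 was thus the highest array for Mertk and the lowest for Tyro3.

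The ligand gene Gas6 also had groups that overlapped. It read 475.5, 360.9 and 495.5 units in wild-type replicates 1, 2 and 3 and 486.3, 545.9 and 666.2 units in Ret-deficient replicates 1, 2 and 3. Replicates 2 and 3 lay above the wild-type range and replicate 1 within it. The log2 difference was 0.34 (SE 0.20, 95% interval -0.14 to 0.82; limma adjusted p = 0.937, exact two-sided permutation p = 0.2). The interval allows a change between 0.91-fold and 1.77-fold. Like Mertk, Gas6 was highest in Ret-deficient replicate 3. The difference of Gas6 spanned 0.20, without wild-type replicate 2, to 0.44, without Ret-deficient replicate 1.

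Pros1, which encodes protein S, differed least. It read 8840, 7648 and 10118 units in wild-type replicates 1, 2 and 3 and 10748.5, 10109 and 9029 units in Ret-deficient replicates 1, 2 and 3. Of the Ret-deficient values 1 lay above the wild-type range and the other 2 within it. The log2 difference was 0.17 (SE 0.18, 95% interval -0.25 to 0.59; limma adjusted p = 0.959, exact two-sided permutation p = 0.3). The interval allows a change between 0.84-fold and 1.51-fold, the narrowest of the 5 genes. Dropping wild-type replicate 2 gave 0.07, and dropping wild-type replicate 3 gave 0.27.

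Endothelial cells are another source of TAM receptors and of protein S. Of 10 endothelial markers, all tested, 5 were positive and 5 negative, with a median of -0.06 and no marker whose groups stayed apart. Their summed signal was 30807.5 to 49745 units in wild-type and 32277 to 39156 units in Ret-deficient kidneys, the latter range lying inside the former. The endothelial median was highest in wild-type replicate 1, at 0.34, and lowest in wild-type replicate 2, at -0.40. On that array Axl, Gas6 and Pros1 had their lowest values, and the macrophage, stromal and erythroid medians were also at their lowest, at -0.30, -0.18 and -0.33. The 2 brightest endothelial markers were Cd34, at 10206 ± 1417 against 10297 ± 303 units, and the angiopoietin receptor gene Tek, at 9849 ± 4226 against 6691 ± 1440 units (mean ± SD, n = 3 per group).

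**Figure D3:**
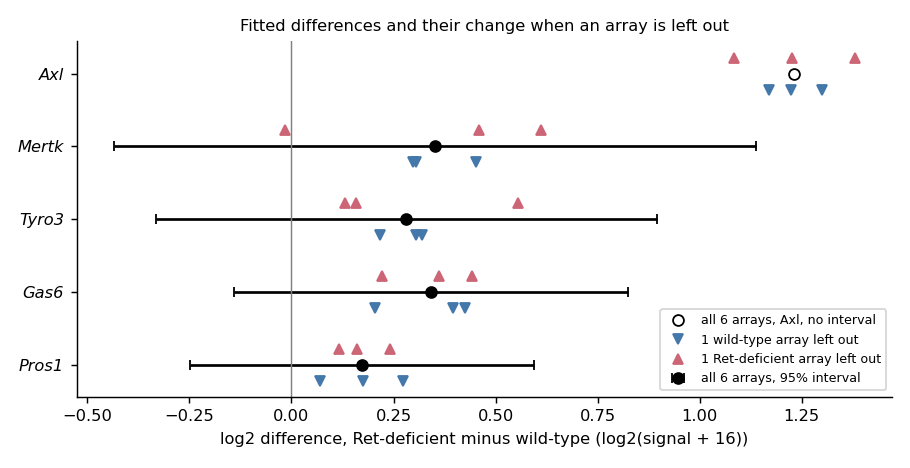
Fitted log2 difference, Ret-deficient minus wild-type, of each member (black), with its 95% interval except for Axl, the gene chosen on this contrast, and the value with 1 wild-type (blue) or 1 Ret-deficient (red) array left out. With an array left out Axl lies between 1.09 and 1.38, where its sign could not change because its groups do not overlap. Mertk runs from -0.015 to 0.61 and Tyro3 from 0.13 to 0.55.

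The rest of the TAM pathway was followed in 8 lists of 76 genes, of which 68 were on the array with a symbol of their own and 49 were tested. None of the 49 passed limma's adjusted p of 0.05, where 0% of all tested genes passed, and 2 had an unadjusted p under 0.05. The groups did not overlap in 3 of them, or 6.1%, against 11.8% of all 11581 tested genes. With 33 positive and 16 negative differences, the median was 0.07.

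Enzymes of the vitamin K cycle, which make the Gla residues that Gas6 and protein S need, gave 3 positive and 1 negative difference, with a median of 0.19 and overlapping groups in all 4. The carboxylase gene Ggcx had a log2 difference of 0.38 (SE 0.37), and Vkorc1, which encodes the vitamin K reductase that warfarin blocks, 0.25 (SE 0.25). The paralogue Vkorc1l1 had -0.23 and the carboxylase inhibitor gene Calu 0.14.

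Of 15 other Gla-domain genes 12 were on the array and 4 were tested, all positive with a median of 0.20. Mgp, whose product is a Gla protein of the extracellular matrix that inhibits calcification, had groups that did not overlap. It read 1341, 3519 and 4279 units in wild-type replicates 1, 2 and 3 and 7089, 5575 and 18595 units in Ret-deficient replicates 1, 2 and 3, with a difference of 1.72 on the log2 scale (SE 0.58). Its lowest value lay in wild-type replicate 1 and its highest in Ret-deficient replicate 3, and it did not pass limma over all probe sets (adjusted p = 0.867). The transmembrane Gla genes Prrg1, Prrg2 and Prrg3 had 0.18, 0.03 and 0.22. The clotting factor genes F2, F7 and F9 and the protein C gene Proc read below the brightest control on all 6 arrays.

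Genes that control the exposure of phosphatidylserine, the lipid that Gas6 and protein S recognise, were 2 positive and 4 negative among 6 tested, with a median of -0.07. The list mixes scramblases, which expose the lipid, with flippases, which move it back inside, so its median has no single direction of exposure. The scramblase genes Xkr8, Ano6 and Plscr1 had log2 differences of -0.05, 0.28 and 0.05. The flippase genes Atp11a and Atp11b had -0.13 and -0.08, and Tmem30a, the subunit that flippases need, had -0.36 (SE 0.21). The groups overlapped in all 6.

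Other receptors and bridges for phosphatidylserine gave 7 positive and 5 negative differences among 12 tested of 17, with a median of 0.03. Anxa5, which encodes the phosphatidylserine-binding protein annexin A5, was the single one whose groups did not overlap. It read 7084, 6319 and 7899 units in wild-type and 8290, 8141 and 8469 units in Ret-deficient kidneys, which is 0.23 on the log2 scale (SE 0.16; limma adjusted p = 0.949). Mfge8, whose product bridges apoptotic cells to integrins, had 0.15. Its integrin partner genes Itgav, Itgb3 and Itgb5 had -0.08, -0.42 (SE 0.89) and 0.48. The T cell immunoglobulin mucin genes Timd4 and Havcr1, whose products bind phosphatidylserine, were too dim to test.

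Of the engulfment genes downstream 10 were tested, 7 positive and 3 negative, with a median of 0.08. Elmo1, an adaptor that works with Dock1 to activate Rac1, was the single one whose groups did not overlap. It read 444.9, 538.8 and 663.4 units in wild-type and 375.7, 138.7 and 440.0 units in Ret-deficient kidneys, which is -0.88 on the log2 scale (SE 0.42; limma adjusted p = 0.928). The value of 138.7 was near that array's brightest control of 116.8 units, and that of 440.0 just under the lowest wild-type value. Its partner genes Dock1 and Rac1 had 0.02 and 0.08, and the lipid exporter gene Abca1 had 0.38 (SE 0.23).

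The proteases that shed TAM receptors from the cell surface, Adam10 and Adam17, had log2 differences of 0.02 and 0.06. Of the further TAM ligands only Tub, which encodes tubby, was bright enough to test, with -0.06; Tulp1 and Lgals3 were not.

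Among genes of TAM signalling and cytokine restraint 8 of 10 tested were positive, with a median of 0.12 and overlapping groups in all 10. Socs3, a cytokine-signalling inhibitor that TAM receptors can induce, was chosen here after its values were seen. It read 2766, 1978 and 1987 units in wild-type and 13057, 5898 and 2415 units in Ret-deficient replicates 1, 2 and 3, with a difference of 1.36 on the log2 scale (SE 0.57). Its values in Ret-deficient replicates 1 and 2 were above the wild-type range, and in replicate 3 within it. With Mgp it was 1 of the 2 pathway genes with an unadjusted p under 0.05, and in limma it had adjusted p = 0.921. The kinase gene Src had 0.63 (SE 0.27) and the interferon receptor genes Ifnar1 and Ifnar2 had 0.06 and 0.48.

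**Figure D4:**
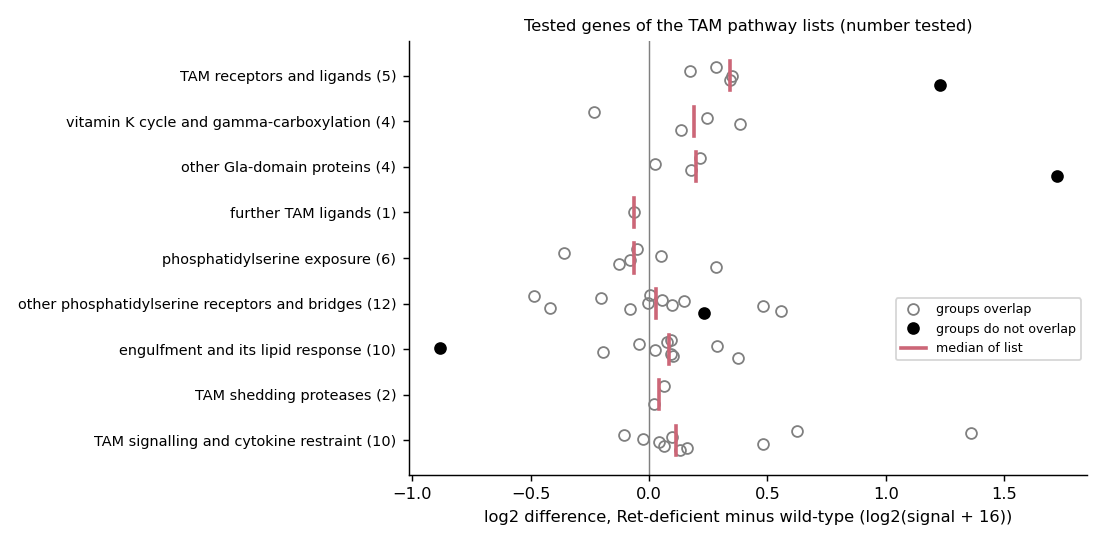
Log2 difference of each tested gene, Ret-deficient minus wild-type, by list, with filled circles where the groups do not overlap and a red line at the median of the list. Medians of the 8 pathway lists lie between -0.07 and 0.20; Axl at 1.23, Mgp at 1.72, Anxa5 at 0.23 and Elmo1 at -0.88 are the filled circles.

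The genes whose pattern over the 6 arrays was most like that of a member were found by Pearson correlation of log2 values among all tested genes. Such correlations are descriptions over 6 arrays that share their scaling and fall into 2 genotypes. Closest to Axl were the zinc finger gene Zfp637 (r = 0.991), Snhg18 (0.984), Zbtb7c (0.983), the sodium channel gene Scn3a (0.980) and the mitochondrial carrier gene Slc25a32 (0.979). In all 5 the groups did not overlap, as in 6.02% of all tested genes in the upward direction. They were picked for likeness to Axl, so nothing is read from this. Zfp637 read 2413 to 2622 units in wild-type and 3923 to 4436 units in Ret-deficient kidneys.

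Closest to Mertk were Zfp862-ps (r = 0.986), Ankrd46, Zfp963, Egfl6 and Zc2hc1a (0.980), all highest in Ret-deficient replicate 3. Egfl6, an EGF-like matrix protein gene, read 244.2 to 349.9 units in wild-type kidneys and 299.7, 413.3 and 1494 units in Ret-deficient replicates 1, 2 and 3. No macrophage marker was among these 5, but only 8 were among the 11581 genes tested, so nothing is read from that.

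Closest to Tyro3 were the clathrin light chain gene Clta (r = 0.993), the ribosomal protein gene Rps18 (0.991), Tk2, Raly and the glutaminyl-tRNA synthetase gene Qars (0.988). Tyro3 had 65 genes at r of 0.95 or more, against 15 for Axl, 15 for Mertk, 16 for Gas6 and 9 for Pros1. Closest to Gas6 were Kdm5c (0.987), the interferon-induced gene Ifitm3 (0.986), Wdr86, the tetraspanin gene Cd82 and Aplp1 (0.973). Closest to Pros1 were Cntnap4 (0.984), Nudt17, the matrix proteoglycan gene Fmod (0.974), Lzts2 and Ndufa2 (0.961). No member was among the closest genes of another member, from which nothing is read, as the members are 5 of 11581 tested genes.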

How the data were processed

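The deposited values are MAS5 signal intensities, 1 Affymetrix mouse array per sample, per the submitters' processing notes; the version is not given in the sources used here. The table held linear intensities above 0 that the authors had scaled to a common mean after trimming 2 percent at each end. Each was used as log2(value + 16), which understates changes of dim probe sets, with no further normalization. Without the 64 control probe sets, those whose mean log2 value reached the median of all such means were tested (22519). Symbols came from the platform annotation; other than for the members they were updated by gene ID with RefSeq names. A gene stands by its brightest tested probe set. Groups were compared with limma 3.58.1 in R 4.3.3 (lmFit, eBayes, no covariates), which was also tested on simulated data, with Benjamini-Hochberg adjustment over all tested probe sets. Summaries used Python 3.11.15.

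The members and gene lists were chosen with earlier results of these data known. Named are all members, list genes past the threshold or else at most 3 per list with groups that do not overlap, the 2 brightest of the marker lists shown, the 5 genes most like each member, and Ret. Further pathway genes, given as examples with their roles, fall outside this rule and were named with their values at hand. Tmem30a, Abca1, Src and Itgb5 among them have some of the larger differences of their lists. Of the marker lists those of nephron progenitors, neural crest and neurons, erythroid cells, and smooth muscle with ureteric mesenchyme had median log2 differences of -0.02, -1.06, 0.04 and -0.28 over 10, 3, 6 and 5 tested genes. Tried as alternatives were pseudocounts of 1 and 64, testing all probe sets or the brightest 30 percent, median centring or quantile normalization, array weights, a variance trend with intensity, a replicate block, leaving out single arrays, an adjusted p of 0.1, and averaging each gene's probe sets.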

Additional observations from a re-analysis of the deposited data

How the results depend on the processing

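None of Mertk, Tyro3, Gas6 and Pros1, and no pathway gene, passed the test under any of the 17 alternatives run, an adjusted p of 0.1 among them. The difference of Axl, the gene chosen on this contrast, kept its sign throughout. With groups that do not overlap, leaving out an array could not have reversed that sign, so nothing is read from it. The Axl difference lay between 1.09 and 1.38 with 1 array left out. It was 0.61 when the 2 Axl probe sets were averaged, of which the dimmer reads below background on every array. Averaging also took Gas6 to 0.01 and Tyro3 to 0.11, and array quality weights took Tyro3 to 0.45 and Pros1 to 0.295. The difference of Mertk was -0.015 to 0.61 with 1 array left out, the negative value being that without Ret-deficient replicate 3, and 0.26 to 0.46 otherwise. Tyro3, Gas6 and Pros1 stayed positive in every alternative that tested them. Left-out arrays, a check added after seeing the data, gave 1 to 3 members whose groups do not overlap. Dropping an array cannot make separate groups overlap, so this count could not fall and had to include Axl. Gas6 and Pros1 joined it without wild-type replicate 3, Gas6 without Ret-deficient replicate 1 and Tyro3 without Ret-deficient replicate 3. In these settings 19.9%, 20.4% and 28.6% of all tested probe sets did not overlap, against 10.7% with all arrays. Median centring moved the median of all tested probe sets from -0.01 to 0.10, and Axl to 1.34. The top 30 percent by brightness held Axl and Pros1 alone. Same-numbered arrays did not deviate together (correlations of 0.031, -0.042 and -0.12), so the numbers are not taken as pairs; with the replicate number as a block the differences were the same, 0 members passed, and the lowest adjusted p was 0.999, for Mertk and Gas6.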
